A study of Mus musculus with 18 samples.

Results

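Hspbap1 was represented by 3 sgRNAs in a pooled CRISPR knockout library of 252 sgRNAs (76 genes with 3 sgRNAs each, and 24 non-targeting sgRNAs). The members were the rows of the deposited count table whose gene is Hspbap1, read in all 18 libraries. The gene was chosen by its abundance under IgA relative to vehicle, which was high for its sgRNAs in these data. Its IgA against vehicle values below are therefore a description, with no test. The host cells were sensBa/F3 cells, a derivative of the interleukin-3-dependent mouse pro-B line Ba/F3. They carried either intact ITPK1 (ITPK1-WT) or deleted ITPK1 (ITPK1-KO, a pool of 6 single-cell clones), and each background received the library by lentivirus and was cultured for 10 days. The ITPK1-WT cells (CellTrace violet) and the ITPK1-KO cells (CellTrace yellow) were mixed 1:1, and 20000000 cells were injected into the peritoneum of each of 8 hCD89-transgenic mice, which carry the human myeloid IgA receptor. Mice 1 to 4 received PBS (vehicle) and mice 5 to 8 received anti-hHer2 IgA. After 16 h, viable cells were sorted by dye, which gave 4 libraries for each combination of background and arm. A further library of each background was made before injection. Dye and genotype cannot be told apart, and each background was 1 transduced pool, so the error measures the spread between mice that shared a pool.

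In a pooled screen, the share of reads that an sgRNA takes reports the relative number of cells that carry it. An sgRNA that gains share under a selective pressure marks cells that became relatively more frequent. Hspbap1 encodes a protein with a JmjC domain, first described as a protein that binds Hsp27. Hsp27 is a small heat shock protein, a chaperone that also restrains apoptosis, and cytochrome c and Daxx are among its reported partners. The screen read genomic DNA, so neither Hspbap1 expression nor the editing at its locus was measured.

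The 3 sgRNAs are shown because every value below rests on these sequences. Capitals mark the 12 bases next to the PAM (positions 9 to 20 from the 5′ end), the seed region in which mismatches are tolerated least by Cas9.
Hspbap1 sg-1: aggaagagGACCACCTAGCG
Hspbap1 sg-2: gtgagatgTCTCCTCAACCT
Hspbap1 sg-3: ttatgtggATGCGACGCTCG
Their GC content was 60%, 50% and 55%, against a library median of 50%. The 3 sequences differed from each other at 13 or more of 20 positions, and from any other sgRNA of the library at 7 or more. They thus share a target gene but differ from each other at most positions. The gene has the NCBI identifier 66667 in the RefSeq annotation of GRCm38.p6, where its nearest protein-coding neighbours are Slc49a4 and Parp14. The library targeted neither neighbour. Cut positions are not given, as no build is named in the files.

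Depth was ample for each sgRNA. Library totals ran from 317564 to 808586 reads, and the Hspbap1 sgRNAs had between 1052 reads (sg-3, ITPK1-KO, mouse 3) and 4335 reads (sg-2, ITPK1-WT, mouse 6), with no count at 0. Between 657000 and 2000000 cells were sorted per recovered library. All vehicle libraries came from 2000000 cells, and the fewest cells came from mouse 8, so cell input differed with the arm. Its part in the results was not tested. In the names of the read files, the sample number equals the running number of the library for some libraries and not for others. Each of these sets is called a sample sheet here, a name that the labels do not give. The first, where the numbers differ, holds all vehicle mice and mouse 5. The second, where they are equal, holds mice 6 to 8 and both libraries made before injection.

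In ITPK1-WT cells, Hspbap1 sgRNAs were more abundant in every IgA mouse than in any vehicle mouse. Summed over the 3 sgRNAs, normalised abundance (CPM, the count of an sgRNA relative to its library's total, scaled by TMM) was 13257, 12688, 13017 and 12802 in vehicle mice 1 to 4. It was 15615, 15076, 15194 and 14834 in IgA mice 5 to 8. All 4 IgA libraries lay above all 4 vehicle libraries, as was so for the summed sgRNAs of 22.4% of genes, and mouse 5, the IgA mouse that shares the sample sheet of the vehicle mice, was the highest. The means were 12941 ± 251 and 15180 ± 326 CPM (SD, n = 4 each). This is a ratio of 1.17, or a log2 difference of 0.23 (SE 0.019). Over the mean of the vehicle mice, the sum stood higher by 0.27 in mouse 5, and by 0.22, 0.23 and 0.20 in mice 6, 7 and 8 (log2 scale). With the sheet as a covariate, which leaves mouse 5 alone against the vehicle mice, the log2 difference was 0.26 (SE 0.030).

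Each of the 3 sgRNAs showed this separation by itself in ITPK1-WT cells. For sg-1, vehicle libraries lay at 4357, 4526, 4470 and 4428 CPM and IgA libraries at 5344, 5297, 5450 and 5251 CPM, a log2 difference of 0.26 (SE 0.030). For sg-2, they lay at 4861, 4602, 4828 and 4651 CPM and at 5593, 5384, 5424 and 5187 CPM, a log2 difference of 0.18 (SE 0.030). For both, mouse 8 was the lowest of the IgA libraries. For sg-3, they lay at 4038, 3561, 3720 and 3723 CPM and at 4678, 4394, 4320 and 4395 CPM, a log2 difference of 0.23 (SE 0.037). Across the library, 12.3% of sgRNAs had all 4 IgA libraries above all 4 vehicle libraries in this background. Nothing is read from the 3 of 3 for Hspbap1 against that share, since the contrast chose the gene.

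ITPK1-KO cells gave IgA values of the same size. Summed abundance was 11284, 11191, 11201 and 11054 CPM in vehicle mice 1 to 4, and 13176, 12555, 13179 and 13907 CPM in IgA mice 5 to 8. Vehicle mice were close together and the IgA mice more spread, with mouse 6 lowest and mouse 8 highest. Again all IgA libraries lay above all vehicle libraries, as was so for 14.5% of genes. The means were 11183 ± 95.2 and 13204 ± 553 CPM (SD, n = 4 each), a ratio of 1.18 and a log2 difference of 0.24 (SE 0.023). Mouse 5, on the sheet of the vehicle mice, stood 0.24 above their mean on the log2 scale, and mice 6, 7 and 8 stood 0.17, 0.24 and 0.31 above it. With the sheet as a covariate the log2 difference was 0.24 (SE 0.036).

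The single sgRNAs again did not overlap between arms in ITPK1-KO cells. For sg-1, vehicle libraries lay at 3806, 3649, 3893 and 3737 CPM and IgA libraries at 4619, 4428, 4711 and 4940 CPM, a log2 difference of 0.31 (SE 0.035). For sg-2, they lay at 4317, 4354, 4006 and 4124 CPM and at 4855, 4514, 4859 and 5027 CPM, a log2 difference of 0.19 (SE 0.034). For sg-3, they lay at 3162, 3188, 3302 and 3193 CPM and at 3702, 3613, 3608 and 3940 CPM, a log2 difference of 0.21 (SE 0.040). The sgRNA with the largest value was thus sg-1, and the one with the smallest was sg-2, in both backgrounds. In ITPK1-KO cells 6.35% of sgRNAs had all IgA libraries above all vehicle libraries, and 4.37% did so in both backgrounds. Hspbap1 was the single gene of 76 for which all 3 sgRNAs did so in both, as a description of the contrast that chose it.

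The place of Hspbap1 in the library shifted with the arm. By summed abundance it ranked 27 to 31 of 76 genes in ITPK1-WT libraries of vehicle mice and 5 to 9 in those of IgA mice. In ITPK1-KO libraries it ranked 43 to 45 in vehicle mice and 21 to 33 in IgA mice. By the size of its log2 difference it was the 4th of 76 genes in ITPK1-WT cells. The gene just above it was Grb2, a growth factor receptor adaptor, at 0.24 (SE 0.083), and the gene just below it was Cyld, which removes ubiquitin chains at the TNF receptor, at 0.14 (SE 0.024). The SE of Grb2 was larger than those of Hspbap1 and Cyld. In ITPK1-KO cells it was the highest of the 76 genes, followed by Grb2 at 0.22 (SE 0.11) and Cyld at 0.19 (SE 0.023).

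Non-targeting sgRNAs give the background of the same comparison. Their log2 differences ran from -0.21 to 0.16 in ITPK1-WT cells (median -0.059, n = 24 sgRNAs). In ITPK1-KO cells they ran from -0.17 to 0.10 (median -0.012). The 3 Hspbap1 values lay above all 24 in both backgrounds, again as a description. Because the non-targeting sgRNAs shifted down in ITPK1-WT cells, a scale set by them gave a summed Hspbap1 value of 0.27 there, and of 0.26 in ITPK1-KO cells.

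The authors' deposited table gave log2 fold changes of 0.32, 0.25 and 0.32 for sg-1, sg-2 and sg-3 in ITPK1-WT cells. In the authors' deposited table for ITPK1-KO cells the fold changes were 0.33, 0.22 and 0.22. Both tables thus place all 3 sgRNAs on the higher side under IgA. The authors' deposited table lists an FDR of 0.998 for each of the 3 in ITPK1-WT cells, where none of the 252 sgRNAs was under 0.05. For ITPK1-KO cells the authors' deposited table lists FDRs of 4.84e-06, 0.00449 and 0.0206, and 12 sgRNAs of the table were under 0.05. These are MAGeCK values of the contrast that chose the gene and come from another normalisation than the CPM above.

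The IgA effects in the backgrounds were then set against each other. Their difference is built from the values that chose the gene, so it is given with its interval and no p-value. For the summed sgRNAs, the difference of effects (KO minus WT) was -0.0014 on the log2 scale (SE 0.030, 95% interval -0.062 to 0.059, edgeR fit of all 16 recovered libraries). The interval bounds the difference and does not show that the effects were equal. For sg-1 the difference of effects was 0.051 (SE 0.047), for sg-2 it was 0.0076 (SE 0.046) and for sg-3 it was -0.024 (SE 0.054). In the library, 3.97% of sgRNAs were called for this difference in edgeR (10 sgRNAs, and 17 without mouse 6). The summed difference turned sign with the setting, from -0.027 to 0.021 over all alternatives. Scaled to the non-targeting sgRNAs, the split of calls over all sgRNAs went from 4 higher and 6 lower to 2 and 7.

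Other genes show what a difference between backgrounds looked like in this screen. The difference of IgA effects was called for 5.26% of genes, which were Itpk1, Ipmk, Ripk1 and Commd4. For Itpk1, the inositol phosphate kinase deleted in one background, the log2 IgA effect was 0.46 (SE 0.045) with intact ITPK1 and -0.021 (SE 0.019) without it, a difference of -0.49 (SE 0.044, adjusted p = 3.52e-13). For Ipmk, an inositol polyphosphate kinase of the same pathway, it was 0.45 (SE 0.054) and -0.16 (SE 0.11), a difference of -0.63 (SE 0.11, adjusted p = 2.43e-05). The IgA effects of both kinases thus differed between the backgrounds, as did their levels. Ipmk sgRNAs were scarce without ITPK1, at ratios to ITPK1-WT cells of 0.153 in vehicle and 0.0989 in IgA mice. Not every Ipmk sgRNA passed the count filter of the sgRNA fit in ITPK1-KO cells. Itpk1 sgRNAs were more abundant without ITPK1 (ratios of 3.36 and 2.39). The part of these levels in the differences was not tested. For Commd4, a COMM domain protein of endosomal sorting whose sgRNAs were lower under IgA in both backgrounds, the effect was -0.50 (SE 0.025) and -0.25 (SE 0.028), a difference of 0.24 (SE 0.038, adjusted p = 1.38e-06). Whether the difference for Hspbap1 itself departs from those of the 3 genes was not tested.

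Hspbap1 sgRNAs were scarcer in the pool without ITPK1 than in the pool with it, in either arm. Each background was 1 transduced pool, so the p-values here and for the single sgRNAs measure the spread between mice only. A difference between the pools and an effect of ITPK1 cannot be told apart. In vehicle mice the log2 difference of the summed sgRNAs (KO minus WT) was -0.21 (SE 0.022, adjusted p = 6.75e-12, edgeR), a ratio of 0.866, and 23.7% of genes were called lower. In IgA mice it was -0.21 (SE 0.021, adjusted p = 1.37e-12, edgeR), a ratio of 0.865, and 27.6% of genes were called lower. Within single mice, where both backgrounds had shared a peritoneum, the KO minus WT value was -0.23, -0.18, -0.22 and -0.21 in vehicle mice 1 to 4. In IgA mice 5 to 8 it was -0.24, -0.26, -0.21 and -0.093. Every mouse was on the lower side, and mouse 8 was the nearest to 0. With the mouse as a block, the values were -0.21 in both arms (SE 0.020 in vehicle and 0.019 in IgA mice) and no call of Hspbap1 changed.

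All 3 sgRNAs passed in both arms. In vehicle mice, sg-1 stood at -0.24 (SE 0.034, adjusted p = 1.03e-09), sg-2 at -0.17 (SE 0.033, adjusted p = 7.17e-06) and sg-3 at -0.23 (SE 0.039, adjusted p = 2.72e-07). In IgA mice, sg-1 stood at -0.19 (SE 0.032, adjusted p = 2.43e-07), sg-2 at -0.17 (SE 0.032, adjusted p = 7.87e-06) and sg-3 at -0.26 (SE 0.037, adjusted p = 3.54e-09). For each of the 3, all 4 ITPK1-KO libraries lay below all 4 ITPK1-WT libraries in either arm. Such calls were common in the library. In edgeR 17.9% of sgRNAs were called lower in ITPK1-KO cells of vehicle mice and 18.3% in those of IgA mice, and full separation on the lower side was seen for 18.3% and 17.1%. All 3 sgRNAs were called lower in both arms for 6 of 76 genes, which were Hspbap1, Bbc3 (the apoptosis inducer PUMA), Daxx (a death domain-associated histone chaperone), Ipmk, Grb2 and the thioredoxin-like Txnl4b. Scaled to the non-targeting sgRNAs, the calls over all sgRNAs moved from 35 higher and 45 lower to 31 and 50 in vehicle mice, and from 42 and 46 to 18 and 63 in IgA mice. The values of Hspbap1 were then -0.22 and -0.24.

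As a mean over the 3 sgRNAs, a gap of this size was already present before injection, where each background had 1 library and no test is possible. The Hspbap1 sgRNAs together took 1.31% of reads in ITPK1-WT cells (7380 reads, exact 95% interval 1.28% to 1.34%). They took 1.16% in ITPK1-KO cells (5982 reads, exact 95% interval 1.13% to 1.19%). These intervals cover counting error only, since reads carry no molecular identifiers. Relative to the median non-targeting sgRNA, the mean log2 difference over the 3 sgRNAs (KO minus WT) was -0.20 (counting SE 0.025). The sgRNAs differed more among themselves than after recovery, with -0.067 for sg-1, -0.15 for sg-2 and -0.38 for sg-3. For scale, the SD of the same difference over the 24 non-targeting sgRNAs was 0.098, and sg-3 lay below all of them. The others lay within their range, with 9 non-targeting sgRNAs below sg-1 and 3 below sg-2. The backgrounds were transduced separately, so the start of each pool and growth in culture cannot be told apart.

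Measured against the starting library of their own background, the mean of the Hspbap1 sgRNAs lay near the start in vehicle mice and above it in IgA mice, while single sgRNAs differed. The mean log2 change over the 3 sgRNAs, taken relative to the non-targeting median, was -0.0080 ± 0.038 in ITPK1-WT cells of vehicle mice (SD, n = 4). In IgA mice it was 0.28 ± 0.020, and single mice ran from 0.25 to 0.29. The IgA value was 0.19 when the median of all sgRNAs was the reference. In ITPK1-KO cells the change was -0.058 ± 0.029 in vehicle mice and 0.19 ± 0.060 in IgA mice (SD, n = 4 each), with single IgA mice from 0.12 to 0.27. By sgRNA, the vehicle means in ITPK1-WT cells were 0.040 for sg-1, 0.017 for sg-2 and -0.081 for sg-3. In ITPK1-KO cells they were -0.17 for sg-1, with single vehicle mice from -0.21 to -0.11, -0.043 for sg-2 and 0.038 for sg-3. Thus sg-1 lay below its start in all 4 vehicle mice of that background, by about as much as it lay above it under IgA. The IgA means in ITPK1-WT cells were 0.36 for sg-1, 0.26 for sg-2 and 0.21 for sg-3, and in ITPK1-KO cells 0.15, 0.16 and 0.26. The order of the sgRNAs thus differed between backgrounds on this scale, which carries the counting error of 1 starting library. No vehicle library shares a sample sheet with the starting libraries. In mouse 5, which is on the sheet of the vehicle mice, the change was 0.29 with intact ITPK1 and 0.18 without it.

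The sgRNAs of Hspbap1 were closer to each other in IgA effect than those of a typical gene in ITPK1-WT cells, and further apart in ITPK1-KO cells. In ITPK1-WT cells their log2 differences spanned 0.076, against a median span of 0.11 over 76 genes. In ITPK1-KO cells they spanned 0.12, against a median of 0.087 over the 75 genes with 3 tested sgRNAs. The lowest of the 3 sgRNAs ranked 3 from the highest among such minima of 76 genes in ITPK1-WT cells, after Itpk1 and Ipmk. In ITPK1-KO cells it ranked 2 of 75. This contrast chose the gene, so these ranks are a description only. Within arms, the spread of the summed sgRNAs between mice (SD of log2 CPM) of ITPK1-WT cells was 0.028 under vehicle and 0.031 under IgA, where the medians over genes were 0.024 and 0.030. For ITPK1-KO cells it was 0.012 in vehicle mice and 0.060 in IgA mice, against medians of 0.029 and 0.027. IgA-treated ITPK1-KO libraries were thus the ones in which Hspbap1 varied most between mice, with a spread that ranked 69 of 76 from the lowest. With the mean of each background and arm removed, pairs of Hspbap1 sgRNAs correlated over the 16 recovered libraries with r = 0.26 (sg-1 and sg-2), 0.20 (sg-1 and sg-3) and 0.44 (sg-2 and sg-3), which share library and scale. Their mean of 0.30 ranked 11 of 76 genes from the highest, where the median over genes was -0.0076.

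The genes most like Hspbap1 were sought by the correlation of summed log2 CPM over the 16 recovered libraries, with the mean of each background removed. The 16 points share their arms and their scale, so an IgA effect common to a pair of genes enters the measure. Cyld was the most alike (r = 0.93). It was followed by 4732429D16Rik, listed in RefSeq as Cd300ld (r = 0.82), and by the potassium channel-interacting protein Kcnip1 (r = 0.81). APAF1, the apoptosome scaffold, had the fifth place (r = 0.79). The least alike were Commd4 (r = -0.91) and Tmem57, which encodes macoilin (r = -0.83). With the mean of each arm removed as well, the highest values were lower, at 0.45 for Casp8 (the initiator caspase of death receptors), 0.43 for Tnfaip8l1 and 0.39 for Foxi1.

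The IgA effects of these genes were smaller than that of Hspbap1 on the higher side. Cyld, 4732429D16Rik, Kcnip1 and Tmem57 were named by a likeness that holds the IgA effect in these same libraries. Their adjusted p-values below are thus not independent of how they were picked. In edgeR, 36.8% of genes were called in ITPK1-WT cells (19 higher, 9 lower) and 13.2% with ITPK1 deleted (6 higher, 4 lower). On the scale of the non-targeting sgRNAs these were 35 higher and 3 lower, and 12 higher and 3 lower. Without mouse 3, 17 genes in place of 28 were called in ITPK1-WT cells. By sgRNA, edgeR called 70 in ITPK1-WT cells, where the authors' MAGeCK values had 0 of 252 under an FDR of 0.05. In ITPK1-KO cells edgeR called 26 sgRNAs, and the authors' values had 12. The calls in ITPK1-WT cells thus depend on the method. Cyld rose in both backgrounds, by 0.14 (SE 0.024, adjusted p = 5.26e-05) in ITPK1-WT cells and by 0.19 (SE 0.023, adjusted p = 6.86e-07) in ITPK1-KO cells. The gene 4732429D16Rik also rose in both, by 0.095 and 0.11 (adjusted p = 0.00473 and 0.000645). Kcnip1 rose by 0.081 and 0.073 (adjusted p = 0.00726 and 0.0119). Its call was lost in ITPK1-WT cells without mouse 3 or 7 (adjusted p = 0.0520 and 0.0532) and in ITPK1-KO cells without mouse 2, 4 or 8 (adjusted p = 0.0599, 0.0897 and 0.108). Tmem57 fell by 0.086 in ITPK1-WT cells and by 0.17 without ITPK1 (adjusted p = 0.00726 and 2.45e-07), and scaled to the non-targeting sgRNAs the first stood at -0.043 (adjusted p = 0.230). Grb2, the neighbour of Hspbap1 by size, passed in ITPK1-WT cells (adjusted p = 0.0271) but not without mouse 1, 2, 3, 7 or 8 (adjusted p up to 0.127), nor in ITPK1-KO cells (adjusted p = 0.209). With the sample sheet as a covariate, the calls of Kcnip1, Tmem57, Grb2 and, of the genes below, APAF1, Bid, Tnfrsf1a, Ripk1 and Spata2 were lost in ITPK1-WT cells (adjusted p from 0.103 to 0.956). In ITPK1-KO cells those of Kcnip1 and 4732429D16Rik were lost (adjusted p = 0.451 and 0.292). In limma 4732429D16Rik, Casp9 and Tnfrsf1a did not pass in ITPK1-WT cells (adjusted p = 0.0610, 0.0837 and 0.0665).

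Of 10 apoptosis genes linked to Hsp27, the library targeted 8. Hspb1, which encodes Hsp27 itself, and the cytochrome c gene Cycs were not targeted. In ITPK1-WT cells 2 of the 8 rose and 1 fell under IgA, where 36.8% of all genes were called in either direction. Nothing about the list is read from its count against that share. The median log2 difference was 0.019 against 0.0062 over all genes. APAF1 rose by 0.079 (SE 0.019, adjusted p = 0.00358) and Casp9, the initiator caspase that APAF1 activates, by 0.062 (SE 0.018, adjusted p = 0.0113). Bid, a BH3-only protein that links caspase-8 to mitochondria, fell by 0.052 (SE 0.018, adjusted p = 0.0271). The call of Bid was lost without mouse 1, 3, 4, 5 or 8 (adjusted p up to 0.0969) and when scaled to the non-targeting sgRNAs (-0.010, adjusted p = 0.708). Among those not past the threshold were Daxx (0.0010) and the pore formers Bax (0.0011) and Bak1 (0.041), of which Bak1 passed on the scale of the non-targeting sgRNAs (adjusted p = 0.00531). In ITPK1-KO cells, where edgeR called 13.2% of all genes, 0 of the 8 passed in edgeR and 3 had an unadjusted p under 0.05. In DESeq2's Wald test or in limma 0 passed, while APAF1 passed in edgeR on the scale of the non-targeting sgRNAs (adjusted p = 0.0483). The median there was 0.011 against 0.0083 over all genes. Daxx had the largest value of the list in that background (0.084, SE 0.035, adjusted p = 0.124).

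Over all genes, edgeR called 36.8% for IgA with intact ITPK1 and 13.2% without it, in either direction. The TNF receptor list was chosen with earlier results known, so its counts are not read against those shares. Of 10 genes of the TNF receptor complex, 7 were targeted (not Tradd, Traf2 or Birc3). In ITPK1-WT cells 3 rose, which were Cyld, its partner Spata2 (0.13, SE 0.033, adjusted p = 0.00473) and the receptor Tnfrsf1a (0.070, SE 0.021, adjusted p = 0.0116). The call of Tnfrsf1a was lost without mouse 4 (adjusted p = 0.0519). The death receptor adaptor Fadd fell by 0.13 (SE 0.026, adjusted p = 0.000310). The kinase Ripk1 fell by 0.063 (SE 0.021, adjusted p = 0.0218), a call lost without mouse 3, 4, 7 or 8 (adjusted p up to 0.0939) and when scaled to the non-targeting sgRNAs (-0.020, adjusted p = 0.500). The ubiquitin ligase gene Birc2 (-0.035) and Casp8 (-0.023) did not pass, and both turned positive when scaled to the non-targeting sgRNAs. In ITPK1-KO cells Cyld rose and Ripk1 fell by 0.26 (SE 0.022, adjusted p = 6.02e-09), and the 5 others did not pass, except Tnfrsf1a on the scale of the non-targeting sgRNAs (0.073, adjusted p = 0.0344). The list medians were -0.023 and -0.0026, against 0.0062 and 0.0083 over all genes. Cyld was the single gene of either list that rose in both backgrounds, while on the scale of the non-targeting sgRNAs others, APAF1 and Tnfrsf1a among them, did so too.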

How the data were processed

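The deposited counts are MiSeq reads per sgRNA, amplified from genomic DNA. The design text says that the authors matched reads to the library, dropped those with a mismatch and scored sgRNAs with MAGeCK RRA, which the submitters' processing notes name too. Aligner and genome build: not given in the sources used here. Both MAGeCK tables, as deposited by the authors, hold a log2 fold change, p-value and FDR per sgRNA. Their 4 columns of joined per-sample values were not used. Per the file headers, the legend also gives each mouse's treatment, which the labels lack, and cells sorted (another unit).

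The counts were fitted with edgeR 4.0.16 in R 4.3.3 (quasi-likelihood test, TMM, mean of at least 10 reads, Benjamini-Hochberg over all features, threshold 0.05). Each background was fitted apart for IgA effects, and all 16 recovered libraries together for the other contrasts. Gene values are counts summed over a gene's sgRNAs, tested with the 24 non-targeting sgRNAs kept single. Levels are CPM scaled by TMM over all 18 libraries. Change from before injection used shares with 0.5 reads added. SEs are the log2 difference over the root of F. limma 3.58.1 and DESeq2 1.42.0 served as alternatives (limma with a prior count of 2).

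Libraries of a group were checked in 24 pairs by chi-square of counts (2.24 to 5.62 per degree of freedom), and none were duplicates. Both libraries of a mouse are paired by that mouse. Over 238 sgRNAs their deviations from group means correlated from -0.084 to 0.26, and the planned fit had no mouse block. The edgeR fit was tested on simulated data for the difference of IgA effects only, with independent libraries and no pairing by mouse. The other contrasts were not simulated.

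The members and lists were chosen with earlier results of these data known. Named genes were Hspbap1, those of both lists, Itpk1, Ipmk and Commd4, the neighbours by IgA effect, and the genes most and least correlated with Hspbap1 (5 and 2, and 3 with arm means removed). Some genes that this rule names are not reported here. Other settings comprised the size factors of DESeq2, total counts, scaling to non-targeting sgRNAs, DESeq2, limma, other filters, each mouse or sgRNA left out, the mouse as a block, the sample sheet as a covariate, and, for changes from the start, 5 reads added or another reference.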

Additional observations from a re-analysis of the deposited data

How the results depend on the processing

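Of 420 alternative values over 30 results, 396 were scored as the same. For most values of Hspbap1 this meant the same direction and side of the threshold, or a move smaller than the spread between mice. For IgA effects and changes from the start, leaving out 1 of 4 mice can hardly move a mean by that spread. Those values were thus nearly bound to be scored the same. The fit without a filter also repeats the main fit for Hspbap1 almost exactly. The tally is therefore no measure of robustness. The gap of Hspbap1 before injection was scored against counting error. Counts of called sgRNAs were scored by a looser rule, on their ratio to the main count. Under it 48 and 94 were scored the same as 70 in ITPK1-WT cells. The KO minus WT values of Hspbap1, summed and by sgRNA, passed under every alternative run, with adjusted p at most 0.00106. Scaled to the non-targeting sgRNAs, the IgA values in ITPK1-WT cells were 0.27 summed, 0.31 for sg-1 and 0.23 for sg-2. With the sample sheet as a covariate they were 0.26 summed, 0.23 for sg-2 and 0.30 for sg-3, and the sgRNAs called fell to 17 from 70 in ITPK1-WT and to 15 from 26 in ITPK1-KO cells. The genes called with that covariate were 9 (of 28) and 5 (of 10), and the fit rests on mouse 5 alone for IgA. With each mouse left out, sgRNAs called ran from 45 (without mouse 7) to 94 in ITPK1-WT cells and from 8 to 17 (without mouse 6) for the difference of IgA effects. The change from the start in ITPK1-WT cells of IgA mice was 0.19 against the median of all sgRNAs. The summed difference of IgA effects changed sign with DESeq2's size factors (0.0031), total counts (0.010), DESeq2's Wald test (0.0030), limma (0.0099), and without sg-2 (0.010) or sg-3 (0.021). With each mouse left out it ran from -0.027 to 0.016. For sg-2 alone it was -0.023 on the non-targeting scale and ran from -0.033 to 0.039 with each mouse left out. Under the pairing by mouse (the block), the difference of effects was -0.0045, and the block changed no call of Hspbap1. KO minus WT splits of genes, 18 higher and 18 lower in vehicle and 12 and 21 in IgA mice, became 11 and 20 and 4 and 28 on that scale. The splits of sgRNAs by IgA effect, 35 higher and 35 lower in ITPK1-WT and 14 and 12 in ITPK1-KO cells, became 70 and 6 and 17 and 8. The causes were not tested. The members had at least 1052 reads per sgRNA and library. Each arm had 4 mice, and each background 1 pool and 1 starting library.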
